A study of Mus musculus with 8 samples.

Results

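The MS4A genes encode small membrane proteins that cross the membrane several times. The symbols Ms4a4a, Ms4a4b, Ms4a4c, Ms4a4d, Ms4a6b, Ms4a6c, Ms4a6d and Ms4a7 were looked up in the gene table, and all 8 of 8 were found among its 49315 genes. The lookup used gene annotation and no measured value, but the list of symbols was chosen with earlier results of these data known. Of the 8, 7 had enough reads to pass the filter on low counts, as did 13051 genes in all, and Ms4a4d did not.

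RNA-Seq had been performed on bone marrow-derived macrophages (BMDMs) from C57BL/6 mice, grown out of marrow in IMDM with 10 ng/ml M-CSF, the growth factor that drives marrow cells to become macrophages. The cells of all 8 libraries received a gapmeR, an antisense oligonucleotide by which RNase H cuts the RNA it pairs with, at 25 nM by lipofection. In 4 libraries (replicates 9, 11, 13 and 15) the gapmeR was directed at MAARS, the lncRNA Gm14461. In the other 4 (replicates 2, 5, 6 and 7) it was the supplier's negative control #1. The comparison is thus between different oligonucleotides, and no library was untreated. Effects of either oligonucleotide apart from MAARS cannot be told apart from those of less MAARS. The labels do not say whether replicates came from separate mice or cultures, so p-values measure the spread between these libraries, which may be technical. Age and sex were not given in the sources used here.

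MS4A proteins are best known from immune cells. The founding member, MS4A1, is the B cell antigen CD20, and MS4A2 is the beta chain of the high-affinity IgE receptor of mast cells. Ms4a4a, Ms4a6 genes and Ms4a7 are expressed by macrophages, where MS4A4A was described beside the beta-glucan receptor dectin-1 and Ms4a6d beside the complement receptor VSIG4. Ms4a4b was described mainly in T cells. The proteins act largely as partners that tune the signalling of other receptors.

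All 8 genes lie in 1 cluster on chromosome 19 of GRCm38, between 11321039 and 11604849, a span of 283.8 kb. From low to high coordinate, Ms4a7 (ENSMUSG00000024672, chr19:11321039-11336146, minus strand) comes first, then Ms4a4a (ENSMUSG00000101389, chr19:11375523-11392790, plus) and Ms4a4c (ENSMUSG00000024675, chr19:11404770-11427246, plus). Ms4a4b (ENSMUSG00000056290, chr19:11443553-11467055, plus) and Ms4a6c (ENSMUSG00000079419, chr19:11469366-11482192, plus) follow. Ms4a6b (ENSMUSG00000024677, chr19:11516512-11531256, plus), Ms4a4d (ENSMUSG00000024678, chr19:11536801-11558467, plus) and Ms4a6d (ENSMUSG00000024679, chr19:11586604-11604849, minus) close the row. All 8 are annotated as protein coding, and counts were summed over exons.

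Within subgroups the genes are close copies in sequence. Aligned locally by their longest protein-coding transcripts, Ms4a4b and Ms4a4c were identical at 90.5% of 1651 bases, and Ms4a6b and Ms4a6c at 89.3% of 1192. Ms4a6d was identical to Ms4a6b at 84.1% of 917 bases and to Ms4a6c at 81.1% of 907. Ms4a4a stood further off, at 69.0% of 662 bases against Ms4a4c, as did Ms4a7, at 63.1% of 528 bases against Ms4a6b. In these transcripts few stretches as long as a read were shared. Of the 100-base windows, 1.72% in Ms4a4c and 0.882% in Ms4a4b occurred in another gene. None of those of Ms4a4a, Ms4a4d, Ms4a6b, Ms4a6d or Ms4a7 did. Ms4a6c was the exception. BE692007, a gene on the opposite strand, covered 53.1% of its exonic bases, and 51.3% of its 100-base windows occurred in another gene, so without a stated strand setting the reads of this pair cannot be told apart. Exonic bases outside the longest protein-coding transcripts were counted too but were not searched. That transcript held 1576 bases in Ms4a7, where the exons span 4453, and 2680 in Ms4a6b, where they span 4485.

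The sequence just before the start site was read for members that changed by very different amounts, to show what the close copies share there. RefSeq promoters on GRCm38.p6 were found for 7 of the 8 genes, all but Ms4a6d, and the 250 bases before the start are printed 5′ to 3′ on the strand of the gene. Ms4a4c and Ms4a4b are shown because they are near-copies with unlike changes, Ms4a6c as an intermediate member, and Ms4a4a as the member tested that was not called. Capitals mark matches to a motif searched on both strands. The windows are chr19:11407411-11407660 for Ms4a4c, chr19:11443308-11443557 for Ms4a4b, chr19:11469118-11469367 for Ms4a6c and chr19:11375238-11375487 for Ms4a4a, all on the plus strand. The RefSeq start used for Ms4a4c lies inside the longer GENCODE gene model given above, and the same holds for Ms4a6b and for 1 of the Ms4a7 starts. Those of Ms4a4b and Ms4a6c lie just inside it. Of the 250 bases, 106 in Ms4a6b, 5 in Ms4a4b and 2 in Ms4a6c fall in annotated exons.
Ms4a4c: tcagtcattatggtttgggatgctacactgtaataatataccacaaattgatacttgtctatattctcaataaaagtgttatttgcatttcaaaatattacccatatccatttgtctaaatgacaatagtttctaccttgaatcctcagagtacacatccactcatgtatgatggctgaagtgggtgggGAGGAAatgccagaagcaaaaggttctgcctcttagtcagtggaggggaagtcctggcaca
Ms4a4b: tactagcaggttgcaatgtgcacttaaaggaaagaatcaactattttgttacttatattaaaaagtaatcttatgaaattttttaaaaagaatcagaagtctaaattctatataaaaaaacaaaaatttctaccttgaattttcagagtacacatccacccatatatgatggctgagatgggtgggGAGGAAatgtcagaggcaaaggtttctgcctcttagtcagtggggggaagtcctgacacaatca
Ms4a6c: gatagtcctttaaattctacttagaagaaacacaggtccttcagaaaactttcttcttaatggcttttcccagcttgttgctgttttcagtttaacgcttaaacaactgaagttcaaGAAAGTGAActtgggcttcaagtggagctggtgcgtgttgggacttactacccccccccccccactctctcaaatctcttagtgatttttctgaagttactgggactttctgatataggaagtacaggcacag
Ms4a4a: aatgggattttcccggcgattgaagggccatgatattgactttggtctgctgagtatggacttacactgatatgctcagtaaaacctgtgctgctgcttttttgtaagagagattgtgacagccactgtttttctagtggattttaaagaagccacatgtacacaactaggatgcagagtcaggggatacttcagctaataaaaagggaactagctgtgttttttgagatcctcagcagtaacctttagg

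The motifs were the interferon-stimulated response element core GAAANNGAA, the gamma-activated site TTCNNNGAA, the PU.1 core GAGGAA and the AP-1 site TGANTCA, none of whose matches overlapped another here. GAGGAA occurred in Ms4a4c, 61 bases before the start, and in Ms4a4b, 64 bases before it, and in 23.3% of all 32817 promoter windows of this length. GAAANNGAA occurred in Ms4a6c as GAAAGTGAA 133 bases before the start, in Ms4a6b as the same GAAAGTGAA 206 bases before it, in both annotated windows of Ms4a7 and in 7.12% of all windows. TGANTCA occurred in 1 of the Ms4a7 windows and in 6.75% of all, and TTCNNNGAA in no member and in 7.01% of all. The windows of Ms4a4c and Ms4a4b aligned over 132 bases with 88.6% identity, and those of Ms4a6c and Ms4a6b over 172 bases with 86.0%. Neither the Ms4a4a nor the Ms4a4d window held a match to any of the 4.

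The libraries held between 19287279 and 24541205 counts, and every MAARS gapmeR library was deeper than every control, the shallowest at 20839671 counts against 20567123 in the deepest control. Levels are given as CPM, counts scaled to a common depth, with TMM factors that also adjust for composition. MAARS itself (Gm14461, chr2:78237547-78302230) fell from 13.1 ± 1.36 CPM (SD, n = 4) to 6.82 ± 0.844 (SD, n = 4), a log2 fold change of -0.95 (SE 0.112, adjusted p = 5.8e-05). The control libraries had 238, 296, 240 and 249 MAARS counts (replicates 2, 5, 6 and 7) and the MAARS gapmeR libraries 163, 161, 159 and 135 (replicates 9, 11, 13 and 15), with no overlap. The macrophage label was checked with 8 markers, all of which passed the filter. Their summed level was 13836 to 17118 CPM in controls and 17011 to 20241 after the MAARS gapmeR. Most of it was Lyz2, at 9402 CPM on average in controls and 13170 after the MAARS gapmeR. Of these 8, 5 were higher and 2 lower, among them Fcgr1, the high-affinity IgG receptor, which fell by 2.09 on the log2 scale. By the same test, described below, 21.3% of all genes tested were higher and 24.0% lower.

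After the MAARS gapmeR, transcripts of 6 of the 7 MS4A genes tested were lower and none was higher. Ms4a4c fell furthest, to 2.32% of its control level, followed by Ms4a6d, Ms4a6b, Ms4a4b and Ms4a6c, which kept between 46.4% and 64.5%. Ms4a7 fell by a small amount, with overlapping groups, and Ms4a4a did not pass the test. The changes are edgeR quasi-likelihood estimates with adjustment over all genes tested, called at an adjusted p under 0.05. By the same test, 45.4% of all genes tested were called, 24.0% as lower and 21.3% as higher. For the 0 members called higher, 0 had an unadjusted p under 0.05 in that direction, and DESeq2 and limma-voom also called 0, while with no filter Ms4a4a had an unadjusted p of 0.0210 (adjusted p = 0.0807). The median log2 fold change of the 7 was -0.78, beside 0.01 over all genes tested. In 5 of the 7 the CPM of the groups did not overlap, which held for 42.1% of all genes tested. In bulk RNA, fewer cells of a type and less RNA per cell cannot be told apart.

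**Figure D1:**
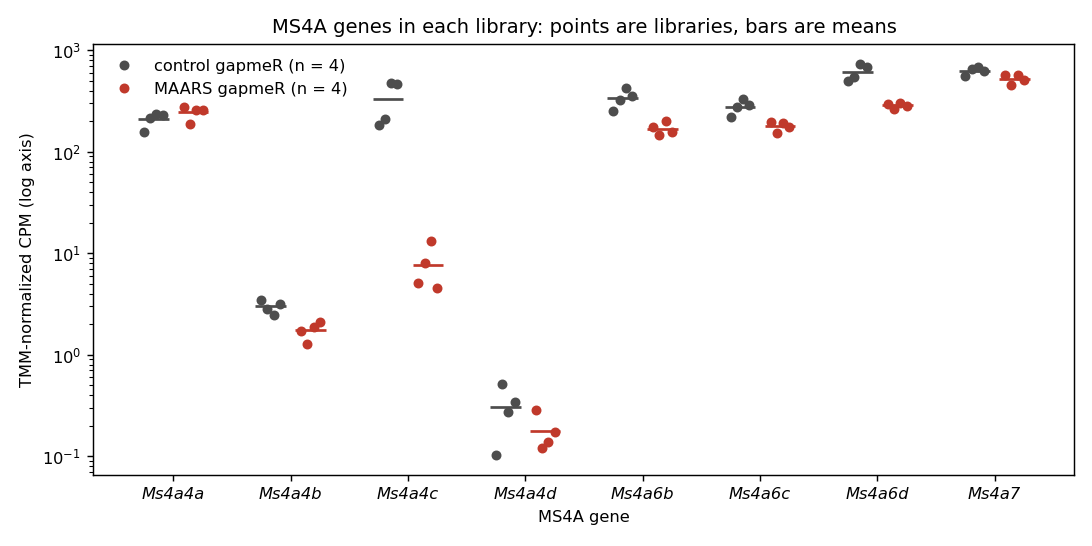
TMM-normalized CPM (log axis) of the 8 MS4A genes in each of 4 control gapmeR libraries (grey) and 4 MAARS gapmeR libraries (red), with each point a library and each bar a group mean. Ms4a4c falls from 333 to 7.72 CPM on average, and the groups overlap for Ms4a4a, Ms4a4d and Ms4a7.

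Ms4a4c, a member of the Ms4a4 subgroup, moved most. Control replicates 2, 5, 6 and 7 gave 184, 210.0, 477 and 460.1 CPM. After the MAARS gapmeR, replicates 9, 11, 13 and 15 gave 5.06, 7.96, 13.3 and 4.55 CPM. In counts the controls held 3598, 4121, 8813 and 9369, and the MAARS gapmeR libraries 107, 200, 290 and 105. The groups were far apart, with the lowest control well above the highest MAARS gapmeR library. The controls were themselves uneven, with replicates 6 and 7 higher than 2 and 5 and the highest 2.59 times the lowest. Mean levels were 333 ± 157 and 7.72 ± 4.02 CPM (SD, n = 4 each). The log2 fold change was -5.43 (SE 0.415, 95% interval -6.34 to -4.52, adjusted p = 5.27e-06), or 43.1-fold lower. This placed Ms4a4c 6th from the most negative of the 13051 genes tested. The estimate was -4.68 without control replicates 6 and 7 and -5.92 without control replicates 2 and 5, a choice made after seeing the data, and it passed the test in both.

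Ms4a6d, a member of the Ms4a6 subgroup, held the second-largest fall. Its CPM was 494, 544, 738 and 689.7 in the controls and 293, 264, 305 and 282 after the MAARS gapmeR, in the same order of replicates. No MAARS gapmeR library reached the lowest control, and the spread was 17.3 CPM (SD) after the MAARS gapmeR against 116 in the controls. The mean fell from 616 to 286 CPM (n = 4 each), a log2 fold change of -1.11 (SE 0.113, adjusted p = 2.05e-05).

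Ms4a6b, its neighbour in sequence, had 253, 320.5, 425 and 351 CPM in the controls and 176, 146, 199.9 and 155 after the MAARS gapmeR. Again the groups did not overlap, and control replicate 6 was highest. The mean went from 337 ± 71.2 to 169 ± 24.0 CPM (SD, n = 4 each), and the log2 fold change was -0.996 (SE 0.14, adjusted p = 0.000194).

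Ms4a6c changed less than its near-copy Ms4a6b. The controls had 219, 276, 328 and 288 CPM and the MAARS gapmeR libraries 195, 153, 194 and 175. The groups were separate but close, with 219 CPM in control replicate 2 against 195 in MAARS gapmeR replicate 9. The means were 278 ± 45.2 and 179 ± 19.7 CPM (SD, n = 4 each), with a fitted log2 change of -0.63 (SE 0.112, adjusted p = 0.000875). BE692007, the opposite-strand gene that shares exonic bases with it and is named here for that overlap, after its values were seen, had 624 to 914 counts a library and a log2 fold change of -0.29 (SE 0.133, adjusted p = 0.0961). The part of its reads in the Ms4a6c value was not tested.

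Ms4a4b was read at a low level throughout, with 68, 55, 46 and 65 counts in the controls and 36, 32, 41 and 49 after the MAARS gapmeR. On the CPM scale the controls had 3.48, 2.80, 2.49 and 3.19 and the MAARS gapmeR libraries 1.70, 1.27, 1.88 and 2.12. The groups did not overlap, and unlike Ms4a4c the controls did not place replicates 6 and 7 on top. The log2 fold change was -0.78 (SE 0.195, 95% interval -1.21 to -0.35, adjusted p = 0.00712). Ms4a4b counts amounted to 0.522% to 1.89% of the Ms4a4c counts in the controls and to 14.1% to 46.7% after the MAARS gapmeR, and the mean fall of Ms4a4b was 0.383% of that of Ms4a4c in CPM. Whether reads of Ms4a4c were counted for its near-copy was not tested.

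Ms4a7 and Ms4a4a changed little. Ms4a7 had 555, 649.6, 682 and 624 CPM in the controls and 563.5, 454, 564 and 511 after the MAARS gapmeR, and control replicate 2 lay below MAARS gapmeR replicates 9 and 13. Its log2 fold change was -0.26 (SE 0.0802, adjusted p = 0.0198), and a two-sided exact permutation test over the 8 libraries gave p = 0.0857, where the smallest possible is 0.0286. The call was lost without control replicate 6 (adjusted p = 0.0568), without MAARS gapmeR replicate 11 (0.0548) or 15 (0.0513), and with upper-quartile factors (0.0550).

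Ms4a4a had 158, 214, 234.5 and 230.3 CPM in the controls and 274, 186, 258 and 258 after the MAARS gapmeR. Replicate 11 fell inside the control range and the other MAARS gapmeR libraries lay above it. The log2 fold change was 0.22 (95% interval -0.07 to 0.52, adjusted p = 0.197), and 0.33 without MAARS gapmeR replicate 11, which then passed the test (adjusted p = 0.0410). Without control replicate 2 it was 0.11 (adjusted p = 0.427). Ms4a4d had 40 counts over all 8 libraries, between 2 and 10 in each, and did not pass the filter. Fitted with no filter, its log2 fold change was -0.78 (adjusted p = 0.411). Its CPM was 0.102, 0.509, 0.270 and 0.344 in the controls and 0.284, 0.119, 0.138 and 0.173 after the MAARS gapmeR, so the groups overlapped at a depth that could not show a change of this size.

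**Figure D2:**
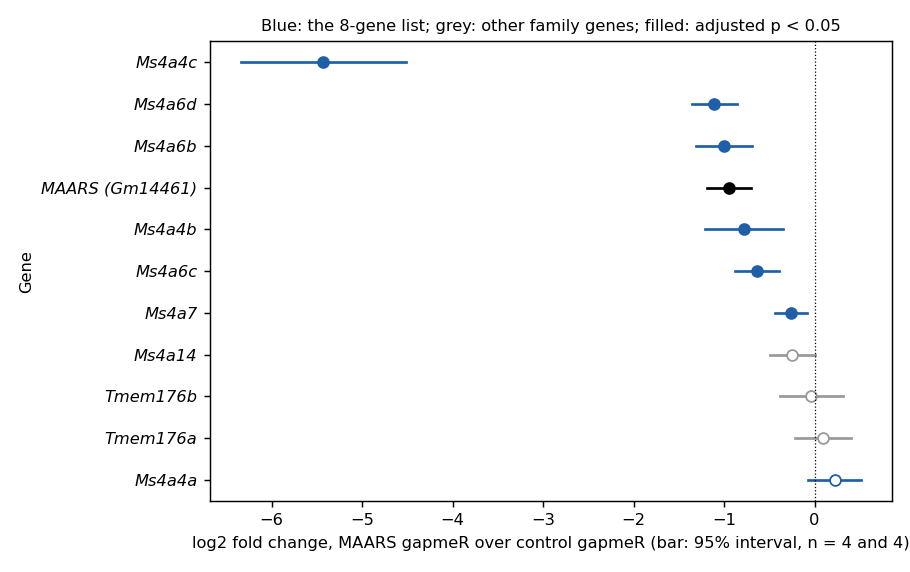
Log2 fold change of the MAARS gapmeR over the control gapmeR (x axis) with its 95% interval (bars), for the 7 MS4A genes tested (blue), 3 other family genes tested (grey) and MAARS (black), with filled points for an adjusted p under 0.05. Ms4a4c at -5.43 lies far from the next, Ms4a6d at -1.11, and the intervals of Ms4a4a and of the 3 grey genes reach 0.

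Whether the members changed by different amounts was tested directly, by the log2 ratio of each pair's counts within a library, which needs no scaling factor. Of the 21 pairs of the 7 genes tested, 16 differed between the groups. The two-sided exact permutation test gave each of these p = 0.0286, its smallest possible value (adjusted over the pairs 0.0375). In these 16 the ratios of the groups did not overlap. The pairs reuse the same 7 genes and are not independent. How often pairs of other genes separate in this way was not tested, and 42.1% of all genes tested did so singly in CPM. All 6 pairs with Ms4a4c were among the 16, and all 6 hold the same fall of Ms4a4c. The ratio of Ms4a4c to Ms4a4b went from a mean log2 of 6.68 to 2.03, a difference of -4.64, and that of Ms4a4c to Ms4a6d from -1.003 to -5.34, a difference of -4.34. Ms4a4a differed from each of the other 6 too, and its ratio to Ms4a6d rose by 1.32 on the log2 scale. Within the Ms4a6 subgroup, the counts of Ms4a6c fell less than those of Ms4a6b by 0.36 and of Ms4a6d by 0.47 on the log2 scale. Whether reads of BE692007 entered the Ms4a6c counts was not tested. Ms4a6b and Ms4a6d differed by 0.11 (exact permutation p = 0.229, adjusted 0.267). The other 4 pairs that did not pass all held Ms4a4b, whose counts were lowest, with adjusted exact permutation p from 0.0706 against Ms4a7 to 0.571 against Ms4a6c.

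Per length, the family's make-up shifted with its total. Levels per kilobase used the exon union of each gene. For Ms4a6c, 53.1% of that union also lies in BE692007 on the opposite strand, so its level, rank and share are uncertain. The summed level of the 8 genes was 1148 ± 237 CPM per kilobase in controls and 704 ± 80.5 after the MAARS gapmeR (SD, n = 4 each), and the groups did not overlap. In the controls Ms4a6d led at 355 CPM per kilobase, then Ms4a4a at 250.1, Ms4a4c at 190.0, Ms4a7 at 141, Ms4a6c at 135, Ms4a6b at 75.2, Ms4a4b at 0.341 and Ms4a4d at 0.203. Ms4a4c lay above Ms4a7, and Ms4a7 above Ms4a6c, in 2 of 4 control libraries each, and the control ranges of Ms4a4a and Ms4a4c and of Ms4a4b and Ms4a4d also overlapped. After the MAARS gapmeR the order was Ms4a4a at 292, Ms4a6d at 165, Ms4a7 at 117, Ms4a6c at 87.4, Ms4a6b at 37.7, Ms4a4c at 4.41, Ms4a4b at 0.199 and Ms4a4d at 0.118, held by neighbours in 4 of 4 libraries, with overlapping ranges for the last pair.

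As a share of the summed per-kilobase level, Ms4a4c went from 15.9% ± 4.71 to 0.63% ± 0.312 and Ms4a6d from 31.1% ± 1.20 to 23.5% ± 1.60 (SD, n = 4 each). Ms4a4a went from 22.0% ± 1.85 to 41.3% ± 2.62, while its own CPM did not pass the test. Shares of Ms4a6c were close in both groups, at 11.9% ± 0.90 and 12.4% ± 0.262. With the longest protein-coding transcript as the length, Ms4a7 moved up to second in the controls and first after the MAARS gapmeR, since its exon union is long. After the MAARS gapmeR it then stood at 332 CPM per kilobase against 292 for Ms4a4a. The shares given here rest on the exon union and would change with that length.

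**Figure D3:**
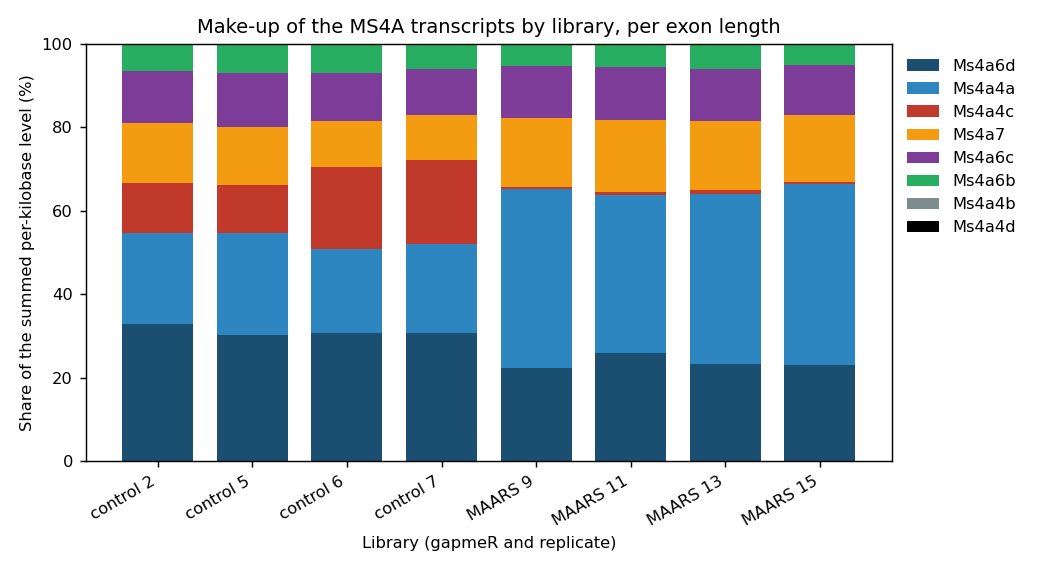
Share (%) of the summed per-kilobase MS4A level (exon union length) taken by each of the 8 genes (colours) in each library. Libraries are on the x axis by gapmeR and replicate, and bars add to 100%. Ms4a4c takes 11.5% to 20.3% in the 4 control libraries and 0.367% to 1.00% in the 4 MAARS gapmeR libraries.

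Across the 8 libraries, log2 CPM of the 6 members called lower correlated with each other, the lowest Pearson r being 0.66, for Ms4a7 with Ms4a4b. The description rests on 8 libraries in 2 groups that share their normalization, so the group difference itself enters each value. Ms4a6c and Ms4a6b had the highest Pearson r among members, 0.99, Ms4a6b and Ms4a6d had 0.98 and Ms4a4c and Ms4a6d 0.98. Ms4a4a ran apart, with r between -0.38 and 0.21 against the other 6. The genes outside the family with the most similar profile to Ms4a4c were Gbp3, an interferon-inducible GTPase (r = 0.999), and Ifi208, of the interferon-inducible p200 family (r = 0.999), with log2 fold changes of -2.63 and -4.33. For Ms4a6d they were Tlr9, the receptor for unmethylated CpG DNA (r = 0.999, log2 fold change -1.87), and Pld4 (r = 0.998, log2 fold change -1.09). Ms4a6b was nearest to Rps24 (0.997) and March1 (0.996), Ms4a6c to Ndst2 (0.994) and Rbm7 (0.992), Ms4a7 to Cops2 (0.980) and Sat1 (0.974), Ms4a4b to Lsm7 (0.980) and Myg1 (0.980), and Ms4a4a to Armc5 (0.952) and Gm37893 (0.952).

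The other 13 genes of the wider family in the table, Ms4a genes and the related Tmem176a and Tmem176b, were mostly silent. Of these, 4 had no count, and 3 were tested. Of these 3, none was called lower or higher by edgeR, 0 had an unadjusted p under 0.05 in that fit, and DESeq2 and limma-voom called 0. With no filter Ms4a14 was called (adjusted p = 0.0251), and DESeq2 gave it an unadjusted p of 0.0404. Ms4a14, just beside Ms4a7, had 60.2 to 89.0 CPM in controls and 52.3 to 69.0 after the MAARS gapmeR, a log2 fold change of -0.24 (adjusted p = 0.0999), passed the test without control replicate 2 (-0.33, adjusted p = 0.0200) and was closest to 0 among single removals without control replicate 6 (-0.15, adjusted p = 0.280). Tmem176a and Tmem176b changed by 0.10 (adjusted p = 0.605) and -0.03 (adjusted p = 0.874) on the log2 scale. Ms4a1 had 16 counts in all, 2 to 4 in each control and 0 or 1 in each MAARS gapmeR library, Ms4a8a had 18 and Ms4a3, a gene of granulocyte progenitors, had 40, and none of these passed the filter. Fitted with no filter, their log2 fold changes were -2.16 (adjusted p = 0.106), -2.38 (adjusted p = 0.0840) and -0.63 (adjusted p = 0.511).

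Among genes whose proteins were described as partners of MS4A proteins, some were called in each direction, as were genes in general. Of 11, 8 were tested, 3 were lower, 2 higher and 3 not called (62.5% called, beside 45.4% of all genes tested), with a median log2 fold change of -0.17 beside 0.01 over all genes tested. Fcer1g, the common gamma chain of Fc receptors, dropped to 506 ± 2.65 CPM from 688 ± 43.3 in controls (SD, n = 4 each), with a fitted log2 change of -0.44 (adjusted p = 4.72e-05). Trem2, a lipid-sensing receptor of macrophages, fell by 0.19 (adjusted p = 0.00626) and Orai1, the pore of the store-operated calcium channel, by 0.25 (adjusted p = 0.0019), both on the log2 scale and with no overlap. Cdkn3, a phosphatase of cyclin-dependent kinases described with MS4A3, rose by 1.30 (adjusted p = 0.000397), and Cd81, a tetraspanin, by 0.51 (adjusted p = 0.00428). Clec7a, which encodes dectin-1, stood at a log2 fold change of -0.15 (adjusted p = 0.251), Tyrobp, the adaptor of TREM2, -0.13 (adjusted p = 0.0810) and Kit, the stem cell factor receptor, -0.70 (adjusted p = 0.281). Vsig4 with 51 counts in all and Tnfrsf18, the receptor GITR described with Ms4a4b, with 41 did not pass the filter, and Fcer1a had none.

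Of 53 genes with other names within 500 kb of the span, 13 were tested, 6 were lower and 1, Tmem109, was higher (log2 fold change 0.18, adjusted p = 0.0474, named after its value was seen). That is 53.8% called, beside 45.4% of all genes tested. By direction, 24.0% of all genes tested were lower and 21.3% higher. Their median log2 fold change was -0.21. AW112010, a lincRNA, had 50.8, 69.2, 136 and 130.4 CPM in the controls (replicates 2, 5, 6 and 7) and 6.62, 7.20, 9.74 and 7.02 after the MAARS gapmeR. As for Ms4a4c, control replicates 6 and 7 were highest and the groups lay far apart. Its log2 fold change was -3.66 (SE 0.313, adjusted p = 7.86e-06). Ccdc86 fell by 1.19 (adjusted p = 5.27e-06), Slc15a3, a peptide and histidine transporter of the lysosome, by 0.64 (adjusted p = 6.49e-06) and Stx3, a syntaxin of membrane fusion, by 0.57 (adjusted p = 2.31e-05), each on the log2 scale.

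**Figure D4:**
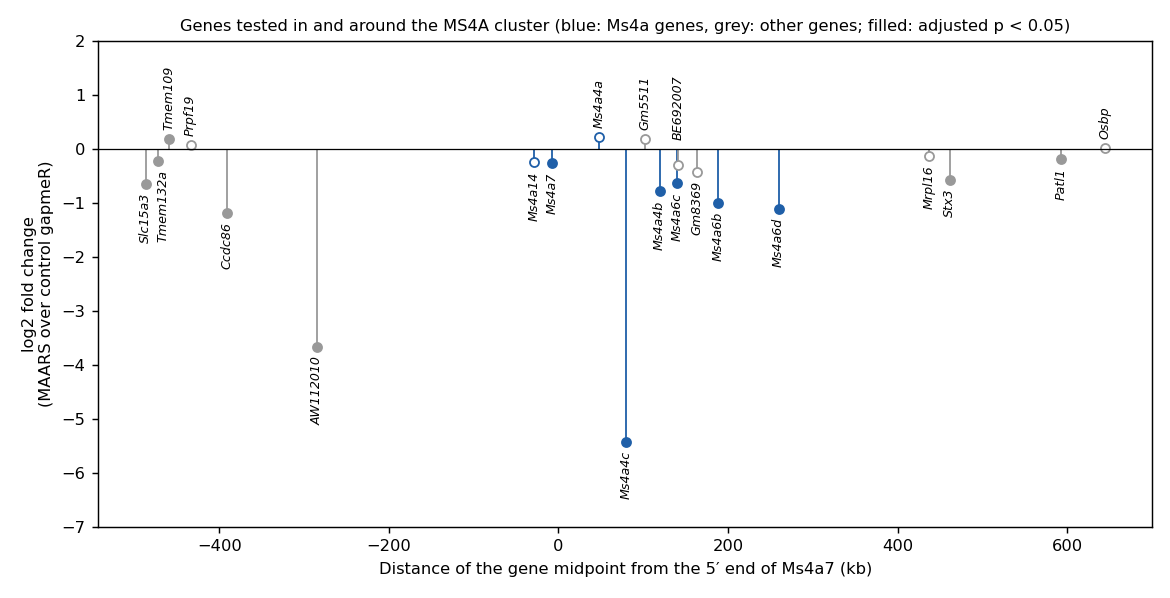
Log2 fold change of the MAARS gapmeR over the control gapmeR (y axis) of each gene tested in and around the cluster, by the distance of its midpoint from the 5′ end of Ms4a7 in kb (x axis), with Ms4a genes in blue, other genes in grey and filled points for an adjusted p under 0.05. Ms4a4c (-5.43) and AW112010 (-3.66) stand far below the rest. The genes tested between them, Ms4a14 (-0.24), Ms4a7 (-0.26) and Ms4a4a (0.22), changed little. Ccdc86 (-1.19), on the other side of AW112010, and Ms4a4b (-0.78), past Ms4a4c, fell more.

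Markers of other cell types were read in the same libraries, since several MS4A genes are expressed outside macrophages. The summed level of 3 genes listed as monocyte markers was 16.5 to 32.7 CPM in controls and 12.3 to 14.9 after the MAARS gapmeR, without overlap. Of the 3, 2 were called lower, Ly6c2 by 1.67 and Ccr2 by 0.49 on the log2 scale. The third, Cd177, was not called by edgeR (log2 fold change -0.35, adjusted p = 0.416), and its groups overlapped. Among all genes tested, 24.0% were called lower, and 42.1% singly showed no overlap in CPM. The 8 T cell markers summed to 66.3 to 86.0 and 41.3 to 52.1 CPM, without overlap, but nearly all of it was Cd4 (74.0 and 46.2 CPM on average), Cd3g was at 0, and Cd3d and Cd3e had 4 counts each in all. B cell markers (4) summed to 1.38 to 2.46 and 1.37 to 1.91 CPM, most of it Cd79b, and mast cell markers (6) to 1.02 to 1.41 and 0.615 to 0.995 CPM with Fcer1a, Mcpt4 and Tpsb2 at 0. Granulocyte and progenitor markers (8) ranged over 85.5 to 248 and 90.2 to 142 CPM, dendritic cell markers (5) over 0.870 to 2.33 and 1.29 to 1.75, and fibroblast markers (5) over 457 to 1043 and 716 to 1230, all with overlap. The monocyte, T cell and mast cell sums were thus lower beside the MS4A genes that fell, but the T cell sum was nearly all Cd4. Kit, the only mast cell marker tested, was not called by edgeR (adjusted p = 0.281). The part of any such cells in the MS4A falls was not tested.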

How the data were processed

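RNA-Seq counts of 8 BMDM libraries were used, 4 for each gapmeR, assigned to groups from the labels, with no column left out. The authors trimmed the reads (paired, 100 nt, HiSeq2500 after ribodepletion), mapped them to the mm10 genome by STAR, guided by Ensembl release 79, and ran featureCounts to obtain gene totals. The deposited values are the resulting raw counts without normalization. The submitters' processing notes name Trimmomatic 0.36, STAR 2.5.2b and Subread 1.5.2. The strand setting and the treatment of reads that map to several places were not given in the sources used here, which bears on overlapping and near-identical genes.

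Counts were analysed in R 4.3.3 with edgeR 4.0.16 (filterByExpr with a minimum count of 10 and a minimum total of 15, TMM factors, glmQLFit, glmQLFTest) and Benjamini-Hochberg adjustment over the 13051 genes kept. The script was tested on simulated data. Depth, 19287279 to 24541205 counts per library, set the precision of low genes. Positions and exon lengths came from GENCODE M21, where 99.47% of the IDs were found. Likeness was Pearson's r of log2 CPM over 8 libraries, and pairs of members were compared by exact permutation of within-library ratios.

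Alternatives were RLE and upper-quartile factors, DESeq2 1.42.0, limma-voom (limma 3.58.1), a mean of at least 10 counts, no filter, each library left out in turn, and the longest transcript as the length. Leaving out control replicates 2 and 5 or 6 and 7 together, and the longest protein-coding transcript, were added after seeing the data. The members and gene lists were chosen with earlier results of these data known. Named were MAARS, the 8 members, other family genes with at least 10 counts in all, the partner list, the 4 called neighbours with the smallest p, the 2 genes most like each member tested, and markers as counts with a few examples. Some marker genes are not reported here.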

Additional observations from a re-analysis of the deposited data

Results flagged for a closer look

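In 58 groups of 4 libraries searched for a library far from the other 3, 3 stood out, where chance gives about 1 in 20 groups. All were genes with few counts. Ms4a8a was at 0.119 CPM in MAARS gapmeR replicate 11 and at 0 in the other 3 libraries of that group. Ms4a1 was at 0 CPM in MAARS gapmeR replicate 9 and between 0.0398 and 0.0460 in the others, the value of 1 count each. Tnfrsf18 was at 0.509 CPM in control replicate 5 and between 0.216 and 0.256 in the other controls. No library of any MS4A gene on the list of 8 stood out in this way.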

How the results depend on the processing

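No paired analysis was possible because the groups share no replicate numbers. Under 16 alternatives, 5 or 6 members were called lower, and the log2 fold changes of Ms4a4c (-5.92 to -4.68), Ms4a6d (-1.32 to -0.86), Ms4a6b (-1.20 to -0.77), Ms4a4b (-0.89 to -0.65) and Ms4a6c (-0.78 to -0.47) kept direction and call. Members called higher went from 0 to 1 with a library left out (range 0 to 1), Ms4a4a without MAARS gapmeR replicate 11. Its log2 fold change ranged from 0.07 (control replicates 2 and 5 left out) to 0.39. Ms4a14 was at -0.08 without control replicates 6 and 7 (adjusted p = 0.634). Ms4a7 ranged from -0.32 to -0.20 and lost its call in 5 alternatives, among them the removal of control replicates 6 and 7 together (adjusted p = 0.124). Other family genes called lower went from 0 to 1 with no filter and ranged from 0 to 1 with a library left out, in both cases Ms4a14. Neighbours called higher went from 1 to 2 with upper-quartile factors and ranged from 0 to 2 with a library left out, and neighbours called lower from 4 (upper-quartile factors) to 7. Upper-quartile factors called 3622 genes higher and 2379 lower in all, against 2782 and 3137 with TMM, and moved the median log2 fold change of all genes to 0.07. The longest protein-coding transcript kept 6 of 7 neighbouring pairs in the per-length order, and the longest transcript kept 7. The causes were not tested. Leaving out a library was not run for the ratio tests of member pairs, which 3 against 4 libraries could not pass after adjustment. Depth limits Ms4a4b, Ms4a4d and the silent family genes.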
